A study of Saccharomyces cerevisiae with 4 samples.

Results

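The 41 genes described here encode the heat shock proteins and molecular chaperones of budding yeast (Saccharomyces cerevisiae): the Hsp70, Hsp110 and Hsp90 families, the disaggregases, the chaperonin of mitochondria, the small heat shock proteins, the co-chaperones that steer them, and their regulator HSF1. They were compared between an H3 mutant strain and a wild-type strain. The mutant's histone H3 had glycines where 8 lysines stand in wild type (positions 4, 9, 14, 18, 23, 27, 36 and 79). Each strain was read on 2 one-colour oligonucleotide arrays; cultures grew in YPD, a rich glucose medium, and were taken at mid-log phase. The labels name no heat or chemical stress, no mating type and no other genotype, and they call the wild-type arrays controls for a second H3 mutant as well. Whether the 2 arrays of a strain came from separate cultures is not stated, so the p-values reflect the spread among 4 arrays alone, which may be technical. Any further genetic difference between the strains and the H3 change cannot be told apart. Replacing codons need not alter the level of an mRNA, so no targeted transcript checks the strain labels.

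The members were every probe set (a group of short oligonucleotides that reads 1 transcript) whose gene name in the platform table contained 1 of the 41 names. This gave 45 of the 9335 probe sets on the array. Of these, 41 read a single gene and 4 were shared by paralogs, so 39 of the 41 genes had a probe set of their own. The ribosome-bound Hsp70 genes SSB1 and SSB2 had only a shared one. After a filter on low signal 36 members were tested, among 4476 genes in all; HSP30, CPR7 and APJ1 were too dim.

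Chaperones bind unfolded protein and keep it from aggregating. Hsp70 proteins do so in cycles of ATP hydrolysis that J proteins start and nucleotide exchange factors, among them the Hsp110 proteins, complete; Hsp90 then matures particular clients with its own co-chaperones. Yeast keeps several of these functions as paralogs, some made at all times and some made mainly under stress, and similar machines work in the cytosol, the endoplasmic reticulum (ER) and the mitochondria. Heat shock factor, encoded by HSF1, sets the basal and induced expression of many of them, and the stress activators Msn2 and Msn4 act on an overlapping set.

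The H3 mutant had more transcript of several stress-inducible cytosolic chaperones, foremost SSA3 (2.10-fold) and HSP82 (1.96-fold), while the constitutive paralogs SSA2, SSE1 and HSC82 were not called. HSC82 was still higher on both mutant arrays, and its log2 fold change of 0.28 was close to the 0.30 of the called inducible gene SSA4. With quantile normalization HSC82 gave 0.18 and SSA4 0.33. By limma with Benjamini-Hochberg adjustment over all tested genes (called at an adjusted p below 0.05), 9 of the 36 tested members rose, 1 fell and 26 did not pass. Of all tested genes 14.3% were called higher and 15.5% lower, 29.8% in either direction. In the same limma fit, 1908 of the 4476 tested genes had an unadjusted p below 0.05, higher and lower together. Counts at that threshold below are to be read against this background. The median log2 fold change of the tested members was 0.05, against -0.03 for all tested genes. Both mutant arrays lay above both wild-type arrays for 14 members and below them for 9, where 31.1% and 36.3% of all tested genes did so. Fold changes are differences of log2(signal + 16), so those of dim genes come out too small, and they are relative to arrays that share a trimmed mean. The control RNAs added at hybridization had geometric mean signals of 174 and 201 in the mutant, against 138 and 141 in wild type. Scaled to them, the median of all genes moved to -0.39. There 2 members, SSA3 and HSP82, were called higher and 20 of 37 lower (4.58% and 55.6% of all genes). In that fit limma gave each gene the spread of the intensity trend, so the gene's own replicate spread did not enter its p-value. HSP42, whose mutant arrays lay on either side of wild type, was called lower there (limma adjusted p = 0.00480). The fold changes below hold only relative to the deposited scale.

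**Figure D1:**
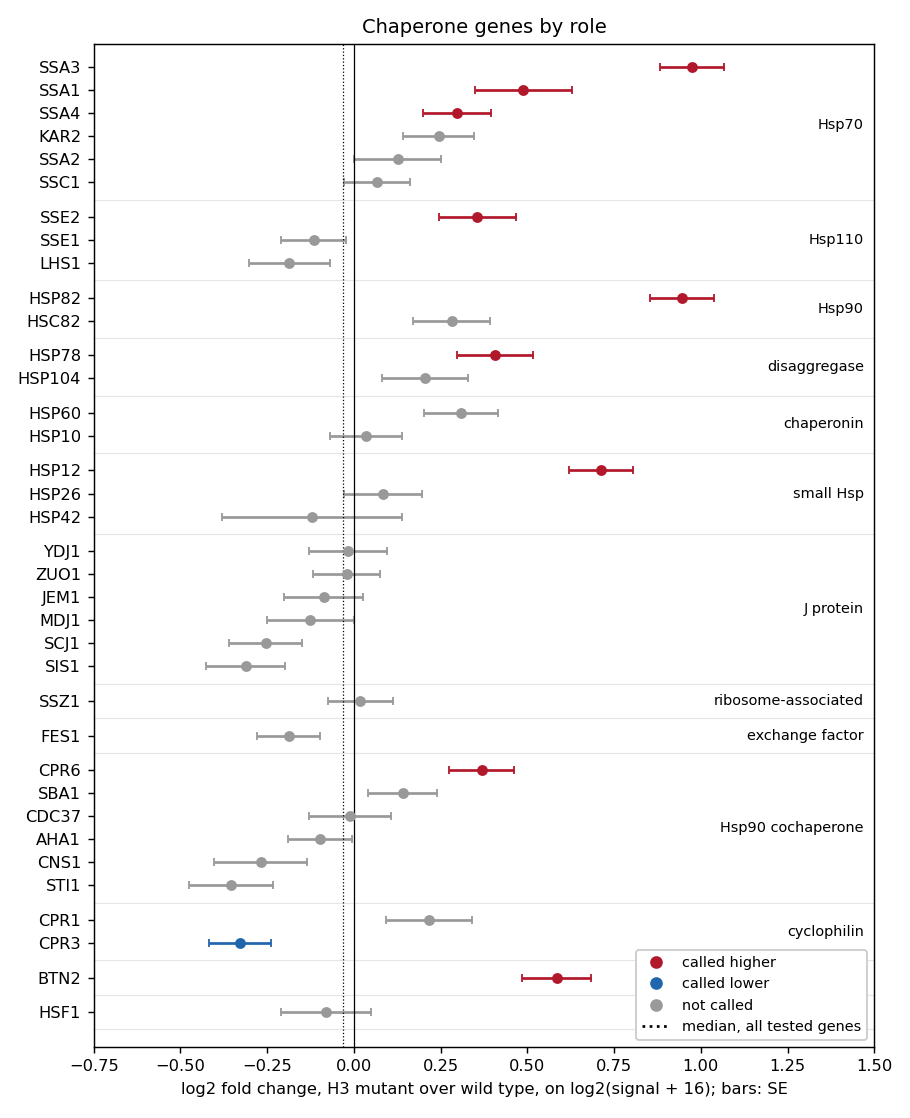
Log2 fold change (H3 mutant over wild type, on log2(signal + 16)) of the 36 tested chaperone genes, grouped by role; bars are standard errors of the limma fit from 2 arrays per strain, and the dotted line is the median of all tested genes. The 9 genes called higher fall in the Hsp70, Hsp110, Hsp90, disaggregase, small Hsp, Hsp90 cochaperone and sorting groups. Of the 6 J protein genes 0 were called, where 29.8% of all tested genes were. Scaled to the hybridization controls, only SSA3 and HSP82 of the 9 stay called higher.

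Among the cytosolic Hsp70 genes, the largest change was that of SSA3, a stress-inducible Ssa paralog that is little used in unstressed cells. SSA3 gave signals of 249.0 and 238.1 on the mutant arrays, against 116.6 and 115.5 on the wild-type arrays. Both mutant arrays lay far above both wild-type arrays, and the means differed 2.10-fold. Its log2 fold change was 0.97 ± 0.0916 (SE, limma, n = 2 each, adjusted p = 0.000114), and it was called in all 4 fits that left out 1 array. SSA4, the other strongly heat-inducible Ssa gene, gave 203.4 and 204.1 on the mutant arrays, against 152.8 and 173.5 on the wild-type arrays. The groups did not overlap, but the rise was smaller (0.30, limma adjusted p = 0.0479) and was kept in only 1 of the 4 fits without 1 array.

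The other Ssa genes are made in unstressed cells. SSA2, the main constitutive Ssa gene, gave 2543.4 and 2625.6 in the mutant, against 2157.7 and 2596.6 in wild type, so that the groups overlapped (log2 fold change 0.13). SSA1, made in unstressed cells and raised further by heat, had 4635.8 and 5162.9 in the mutant, against 3183.6 and 3807.4 in wild type. SSA1 rose by a log2 fold change of 0.49 ± 0.139 (SE, limma adjusted p = 0.0280), read by a probe set whose suffix marks relaxed probe selection rules. Its call was lost without mutant replicate 1 (adjusted p = 0.10), mutant replicate 2 (0.208) or wild-type replicate 1 (0.127), and with quantile normalization (0.21, adjusted p = 0.0528). A feature of these arrays bears on the brightest members: the 100 brightest tested genes had a median log2 fold change of 0.16, and -0.01 after quantile normalization. SSA1, SSA2, HSC82, HSP60, KAR2 and CPR1 are among those 100 genes. Its part in their changes was not tested further.

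The SSB genes and 3 further shared probe sets cannot be assigned to 1 paralog. The probe set read for SSB1 and SSB2 together gave 2221.0 and 2382.9 in the mutant, against 2085.3 and 2261.5 in wild type. Those groups overlapped. One probe set shared by SSA1 and SSA2 was the brightest on every array, at 6601.5 and 7497 in the mutant, against 4435.7 and 5442.5 in wild type. The other gave 1522.9 and 1511.7 in the mutant, against 1428.3 and 1214.8 in wild type. In a limma fit over all 9275 non-control probe sets, where 9.19% were called higher and 5.02% lower, 0 of the 4 shared probe sets were called. Their log2 fold changes ran from 0.08 to 0.52 and 2 had an unadjusted p below 0.05. The partners of Ssb on the ribosome were not called either. SSZ1, the atypical Hsp70 of the ribosome-associated complex, averaged 555 ± 32.8 in the mutant and 547 ± 24.4 in wild type (SD, n = 2 each). ZUO1, its J protein partner, averaged 1066.5 ± 47.7 in the mutant and 1082 ± 23.4 in wild type (SD, n = 2 each). Both gave log2 fold changes of -0.02 to 0.02 with overlapping groups.

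The Hsp90 genes are an inducible and a constitutive paralog. HSP82, the inducible Hsp90 gene, gave 817.3 and 850.7 on the mutant arrays, against 436.6 and 414.2 on the wild-type arrays. The means differed 1.96-fold, with no overlap and with replicates close together. HSP82 rose by 0.95 ± 0.0912 (SE, limma adjusted p = 0.000129), a call made in all 4 fits without 1 array. HSC82, the constitutive Hsp90 gene, gave 2220.9 and 2361.3 in the mutant, against 1799.0 and 1965.9 in wild type. HSC82 was also above wild type on both arrays, but by 0.28, and did not pass (limma adjusted p = 0.0837). A probe set shared by HSP82 and HSC82 gave 1611.5 and 1705.4 in the mutant, against 1404.8 and 1316.0 in wild type (log2 fold change 0.28). The single-gene HSP82 probe set is of an incomplete type by its platform suffix, with fewer probes than the standard design.

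**Figure D2:**
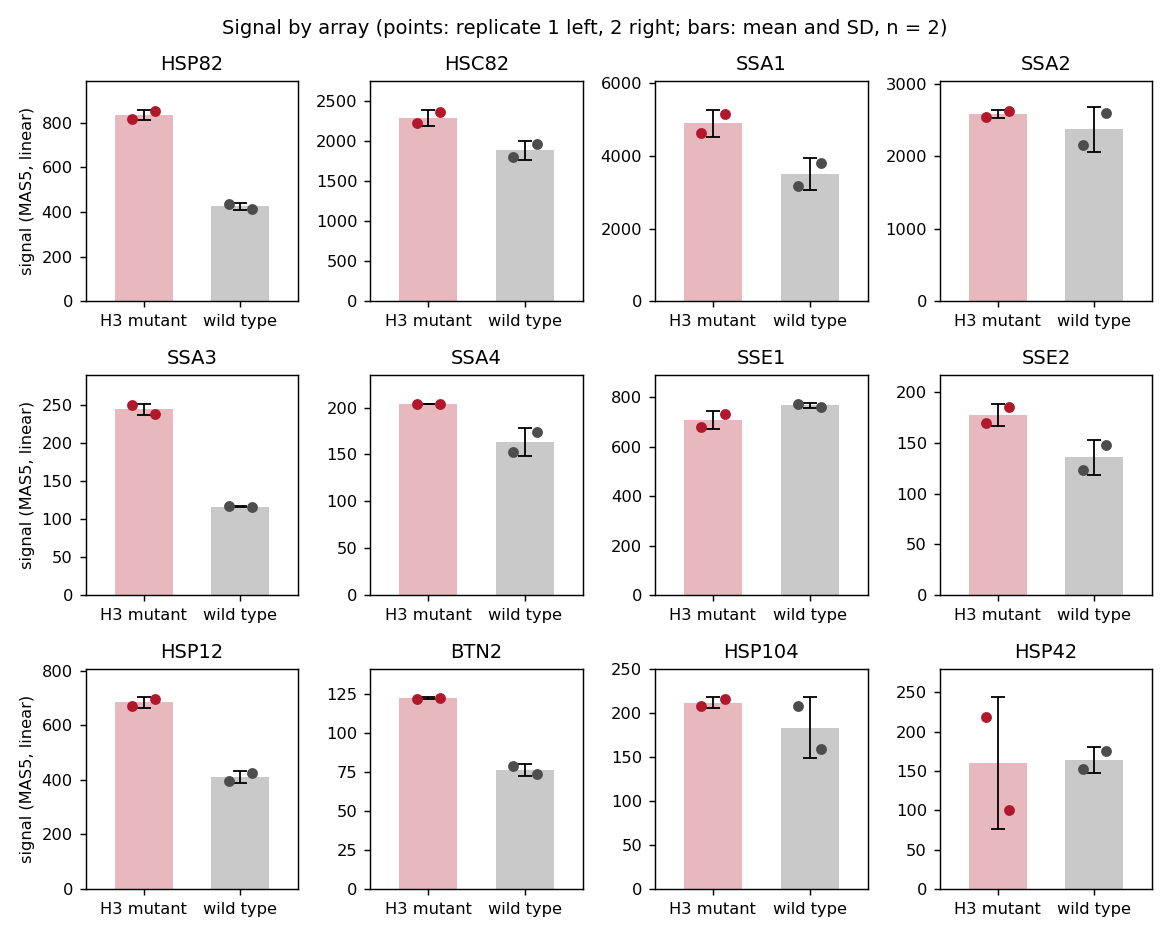
Signal (MAS5, linear scale) on each array for 12 chaperone genes, with H3 mutant arrays left and wild-type arrays right in each panel; points are arrays, bars are means with SD (n = 2). HSP82, SSA3, HSP12 and BTN2 separate widely, SSA2 and HSP104 overlap, and the mutant arrays of HSP42 disagree with each other.

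A factor that scales a whole array nearly cancels in a ratio of bright paralogs within that array; for dim genes the added 16 keeps part of it. For HSP82 over HSC82 the log2 ratio on the mutant arrays was 0.68 and 0.65 above the wild-type mean, while the wild-type arrays lay 0.10 to either side of it. The shift was 0.66 ± 0.101 (SE), a 1.58-fold change in the ratio. SSA3 over SSA2 shifted by 0.85 ± 0.148, a 1.80-fold change, and SSA1 over SSA2 by 0.36 ± 0.0548. SSA4 over SSA2 shifted by only 0.17 ± 0.0533. Quantile normalization brought SSA1 over SSA2 to 0.20 and SSA4 over SSA2 to 0.33. Cross-hybridization between the probe sets of close paralogs (SSA1 and SSA2, HSP82 and HSC82) could not be checked without probe sequences, so their levels and ratios may mix both genes.

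The same direction was seen for the Hsp110 pair, which serve as exchange factors of Hsp70. SSE2, the stress-inducible Hsp110 gene, gave 169.8 and 185.3 in the mutant, against 123.2 and 148.0 in wild type, and rose by 0.36 (limma adjusted p = 0.0386). SSE1, the constitutive one, gave 680.5 and 732.1 in the mutant, against 773.5 and 759.4 in wild type, slightly below on both arrays (-0.12, limma adjusted p = 0.376). SSE2 over SSE1 shifted by 0.47 ± 0.131 (SE). The SSE2 call was lost without mutant replicate 1 (adjusted p = 0.0754), mutant replicate 2 (0.181) or wild-type replicate 1 (0.170).

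In the 5 pairs whose genes were both tested, the ratio on both mutant arrays lay above that on both wild-type arrays. CPR6 over CPR7 did so too (0.48 ± 0.241), but CPR7 was too dim to test, and the shift was 0.26 without wild-type replicate 1 and 0.70 without wild-type replicate 2. With 2 arrays against 2 the exact permutation test, two-sided, gave p = 0.333 for each pair, the smallest value this design allows. The ratios over SSA2 share their denominator and are not independent. In the 5 pairs each numerator had been called higher and each denominator had not, so their direction is not separate from those calls.

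**Figure D3:**
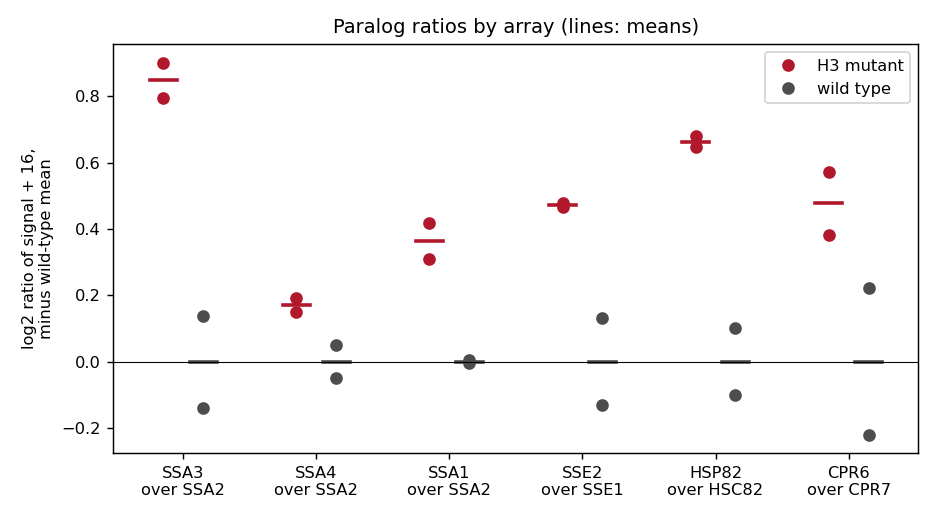
Log2 ratio of paralog signals (signal + 16) on each array, shown relative to the wild-type mean of that ratio; H3 mutant arrays stand left and wild-type arrays right in each pair, and lines are means. The mutant arrays lie above the wild-type arrays in each pair, by 0.17 (SSA4 over SSA2) to 0.85 (SSA3 over SSA2); CPR7, in the last pair, was too dim to test.

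Of the 6 tested Hsp90 co-chaperone genes 1 rose and 0 fell by limma, with 1 lower at an unadjusted p below 0.05. Among all tested genes, 14.3% were called higher and 15.5% lower. CPR6, a heat-inducible cyclophilin that docks on Hsp90, gave 931.9 and 998.4 in the mutant, against 752.7 and 734.8 in wild type, and was the gene that rose (0.37, limma adjusted p = 0.0191). No fit on 3 arrays kept that call (adjusted p from 0.0563 to 0.126). STI1, which bridges Hsp70 and Hsp90, gave 715.4 and 563.0 in the mutant, against 804.5 and 827.2 in wild type. The STI1 mutant arrays were both lower but far apart, and the change of -0.35 did not pass (limma adjusted p = 0.0531). It passed without mutant replicate 1 (-0.52, adjusted p = 0.0206) and with quantile normalization (adjusted p = 0.0398), and was -0.19 without mutant replicate 2 (adjusted p = 0.371). CNS1, an essential co-chaperone, gave 90.5 and 81.1 in the mutant, against 123.2 and 91.9 in wild type (-0.27, limma adjusted p = 0.160), and ran from -0.09 without wild-type replicate 1 (adjusted p = 0.631) to -0.45 without wild-type replicate 2 (adjusted p = 0.0484). AHA1, which stimulates the Hsp90 ATPase, averaged 214 ± 10.7 in the mutant and 230 ± 9.97 in wild type (SD, n = 2 each). SBA1, the yeast p23, averaged 1167 ± 34.9 in the mutant and 1058 ± 58.4 in wild type, and CDC37, which delivers kinases to Hsp90, averaged 194 ± 6.51 in the mutant and 196 ± 33.0 in wild type. Their log2 fold changes lay between -0.10 and 0.14. CPR7, a CPR6 paralog below the limit for testing, gave 24.8 and 22.2 in the mutant, against 34.2 and 20.1 in wild type.

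The 6 tested J protein genes had log2 fold changes between -0.31 and -0.02. By limma 0 of them were called, where 29.8% of all tested genes were, and 2 were lower at an unadjusted p below 0.05. SIS1, the essential J protein that works with Ssa in protein quality control, gave 267.1 and 290.0 in the mutant, against 389.2 and 313.5 in wild type. Both mutant arrays were below wild type, and the change of -0.31 did not pass (limma adjusted p = 0.0677), though it did without wild-type replicate 2 (-0.46, adjusted p = 0.0337). Without wild-type replicate 1 it was -0.16 (adjusted p = 0.299). YDJ1, the most general cytosolic J protein, gave 1277.6 and 1069.4 in the mutant, against 1167.3 and 1197.5 in wild type, with the wild-type arrays inside the mutant range. APJ1, a stress-inducible J protein, was too dim to test, at 14.8 and 20.5 in the mutant, against 13.9 and 13.1 in wild type. FES1, a cytosolic exchange factor of Hsp70, gave 277.8 and 298.6 in the mutant, against 335.0 and 325.5 in wild type, lower on both arrays but not called (-0.19, limma adjusted p = 0.147).

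Small heat shock proteins and disaggregases were mixed. HSP12, a membrane-associated stress protein under Msn2 and Msn4, gave 669.7 and 696.2 in the mutant, against 395.7 and 426.4 in wild type. It rose by 0.71 ± 0.0922 (SE, limma adjusted p = 0.000672) and was called in all 4 fits without 1 array. HSP26, a heat-activated holdase, gave 57.0 and 56.6 in the mutant, against 57.2 and 48.5 in wild type, and was not called (0.08). HSP42, which gathers misfolded protein into deposits, gave 218.9 and 100.2 in the mutant, against 152.4 and 175.3 in wild type. The HSP42 mutant arrays fell on opposite sides of wild type, and its log2 fold change was -0.63 without mutant replicate 1 (adjusted p = 0.0116) and 0.39 without mutant replicate 2 (adjusted p = 0.0723). HSP42 belongs to a stretch of consecutive probe set numbers in which the mutant replicates disagreed more: the SD of their log2 difference was 0.373 over 731 probe sets there, against 0.200 over the other 5005, while the wild-type replicates gave 0.175 and 0.200. The same stretch holds AHA1, CDC37, HSP78 and the 3 CPR1 probe sets.

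BTN2, which sorts aggregated protein and is itself a target of heat shock factor, gave 121.7 and 122.4 in the mutant, against 78.6 and 73.5 in wild type. It rose by 0.59 ± 0.0996 (SE, limma adjusted p = 0.00278), again called in all 4 fits without 1 array, but not under scaling to the hybridization controls (0.23, adjusted p = 0.220), where HSP12 also missed the threshold (0.30, adjusted p = 0.0714). HSP104, the cytosolic disaggregase that solubilises aggregates after heat, gave 207.6 and 216.2 in the mutant, against 207.9 and 158.7 in wild type. The HSP104 groups overlapped, and the change of 0.20 did not pass (limma adjusted p = 0.241). It was 0.38 without wild-type replicate 1 (adjusted p = 0.0513) and 0.03 without wild-type replicate 2 (adjusted p = 0.876). HSP30, a stress protein of the plasma membrane, was below the limit for testing at 30.1 and 27.0 in the mutant, against 18.2 and 20.1 in wild type (0.34, adjusted p = 0.0820 in the limma fit over all probe sets), and was called higher in the gene fit with no filter.

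In mitochondria, 1 of 6 tested members rose and 1 fell, near the 14.3% higher and 15.5% lower among all tested genes. HSP78, the mitochondrial disaggregase, gave 70.6 and 62.3 in the mutant, against 47.3 and 44.9 in wild type, and rose by 0.41 (limma adjusted p = 0.0231). The HSP78 call was lost without mutant replicate 1 (adjusted p = 0.155), wild-type replicate 1 (0.0678) or wild-type replicate 2 (0.0831). CPR3, a cyclophilin of the matrix, gave 583.4 and 592.3 in the mutant, against 733.8 and 750.4 in wild type. It was the only tested member that fell (-0.33, limma adjusted p = 0.0243), although no fit on 3 arrays kept the call (adjusted p from 0.0618 to 0.125). Scaled to the hybridization controls it was -0.74, where most genes were called lower. HSP60, the chaperonin that folds imported proteins, gave 2072.6 and 2247.6 in the mutant, against 1760.3 and 1720.4 in wild type, above on both arrays but not called (0.31, limma adjusted p = 0.0574). Its lid HSP10 gave 684.9 and 798.1 in the mutant, against 733.9 and 710.1 in wild type, with overlapping groups. SSC1, the matrix Hsp70 that also drives protein import, averaged 369 ± 2.26 in the mutant and 353 ± 29.6 in wild type (SD, n = 2 each). Its J protein MDJ1 averaged 97.35 ± 5.87 in the mutant and 108 ± 19.9 in wild type (SD, n = 2 each).

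In the ER, 0 of 4 tested members were called by limma, where 29.8% of all tested genes were. At an unadjusted p below 0.05, 1 was higher and 1 lower. KAR2, the ER Hsp70 (BiP) and a standard marker of the unfolded protein response, gave 1910.6 and 1920.6 in the mutant, against 1635.3 and 1593.7 in wild type. KAR2 lay higher on both arrays with close replicates, and its change of 0.24 did not pass (limma adjusted p = 0.0988). SCJ1, a J protein of the ER lumen, gave 141.7 and 160.7 in the mutant, against 194.1 and 172.6 in wild type (-0.25, limma adjusted p = 0.0965). LHS1, the ER member of the Hsp110 kind and exchange factor of Kar2, gave 79.7 and 78.8 in the mutant, against 102.9 and 82.7 in wild type. JEM1, a second J partner of Kar2, gave 43.7 and 42.1 in the mutant, against 50.6 and 42.8 in wild type. Neither LHS1 nor JEM1 was called.

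The counts by compartment and by class stand beside 14.3% called higher and 15.5% lower among all tested genes. Set by compartment, 8 of 25 tested cytosolic members rose and 0 fell, with 2 lower at an unadjusted p below 0.05. The cytosolic median log2 fold change was 0.13 (-0.27 when scaled to the hybridization controls). The medians were 0.05 for the 6 mitochondrial and -0.14 for the 4 ER genes. Induction classes followed textbook descriptions but were set with earlier results of these data known. By these classes 8 of 13 tested inducible genes rose and 0 fell (0 lower at an unadjusted p below 0.05). Their median was 0.36 and their range ran from -0.19 to 0.97. Of 15 constitutive genes 0 rose and 1 fell, with 1 higher and 2 lower at an unadjusted p below 0.05 and a median of -0.02. Of 8 genes that are both made at all times and raised by heat, 1 rose (SSA1) and 0 fell. At an unadjusted p below 0.05, 3 were higher and 2 lower, and the median of 0.01 lay in a range from -0.35 to 0.49. STI1 and SIS1, lower on both mutant arrays, were placed in this class. Inducible members that were not called were HSP104, HSP26, HSP42, AHA1 and FES1. Under scaling to the hybridization controls the medians of the inducible and constitutive classes were -0.04 and -0.40. These differences between classes were not tested, since genes are not replicates of a strain, and they depend on the class in which each gene was placed.

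**Figure D4:**
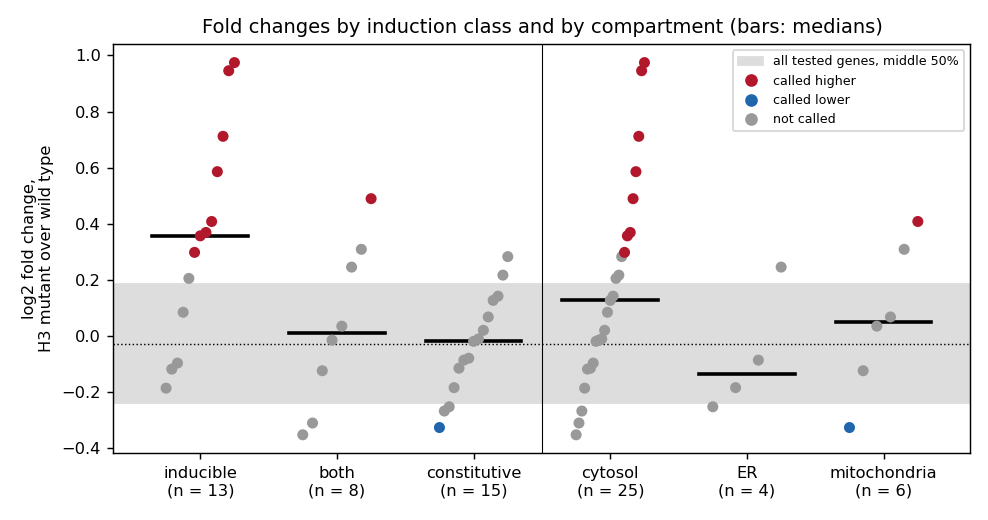
Log2 fold change (H3 mutant over wild type) of the tested chaperone genes by induction class (left) and by compartment (right); points are genes, thick bars are medians, the grey band is the middle 50% of all 4476 tested genes and the dotted line their median. The inducible class has a median of 0.36 and the constitutive class one of -0.02, while the ER genes have a median of -0.14. With the hybridization controls as the scale the inducible median is -0.04. Classes were set with earlier results of these data known. HSF1, in the nucleus, is shown only on the left.

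HSF1 itself was not called. Its probe set gave 61.8 and 50.2 in the mutant, against 66.4 and 53.9 in wild type, with overlapping groups (-0.08, limma adjusted p = 0.674). The cytosolic cyclophilin CPR1, which has 3 probe sets of its own, gave 2556.5 and 2704.5 on the brightest in the mutant, against 2076.8 and 2463.0 in wild type. Another gave 2213.0 and 2172.8 in the mutant, against 1630.8 and 1905.9 in wild type, and the last 2118.0 and 2388.9 in the mutant, against 1860.1 and 2026.3 in wild type. All 3 were higher on both mutant arrays, with log2 fold changes of 0.21 to 0.31. In the limma fit over all probe sets 0 were called, with 1 higher at an unadjusted p below 0.05.

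The genes next to the 10 called members were taken from the gene order of the reference annotation. Of 20 neighbours 13 were tested, and 1 rose, 5 fell and 7 did not pass. Of all tested genes 14.3% were called higher and 15.5% lower. One of those that fell, CIN2 beside HSP82, passed the filter only through its wild-type signal; on the other side YAR1 gave -0.05. Beside SSA3, ILS1 gave -0.06. CPR3 was flanked by CFF1 and BET5, which fell further than it did (-0.67 and -0.74, limma adjusted p = 0.00276 and 0.00107), and CPR6 by COA4, which rose (0.43, adjusted p = 0.0171). The others that fell were ERP2, beside SSA1, and VPS62, beside BTN2 (-0.37 and -0.35).

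Other folding factors were read from lists of genes outside the 41. The counts in these lists and those below stand beside 14.3% higher and 15.5% lower among all tested genes. Prefoldin is the chaperone that hands actin and tubulin to the CCT chaperonin. Of its 6 tested genes 4 fell and 0 rose by limma, with a median of -0.50. At an unadjusted p below 0.05, 5 were lower and 0 higher. PFD1, counted among the 6 and in the median, passed the filter only through its wild-type signal. Without PFD1, 4 genes still fell. GIM5 gave 120.2 and 123.1 in the mutant, against 201.1 and 197.6 in wild type (-0.65, limma adjusted p = 0.00108). PAC10, GIM4 and GIM3 fell by 0.53, 0.62 and 0.30 on the log2 scale. GIM3 kept its call in 0 of the 4 fits without 1 array, and GIM4 kept it in 1 of 4 such fits. The 8 CCT genes had a median of -0.14, and 0 were called by limma, with 1 lower at an unadjusted p below 0.05. CCT6 and TCP1 gave -0.26 and -0.18.

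Among 9 other J protein genes 0 rose and 2 fell (0 higher and 3 lower at an unadjusted p below 0.05). PAM18, of the mitochondrial import motor, fell to 139.1 and 146.9 in the mutant, against 241.3 and 216.8 in wild type, and SEC63, of the ER translocon, fell by 0.42, a call kept in 1 of the 4 fits without 1 array. Of 13 ER folding and unfolded protein response genes 2 rose and 3 fell. EUG1, a protein disulfide isomerase homologue, rose by 0.44 and EPS1 fell by 0.39, calls kept in 1 and 2 of those 4 fits. The calnexin gene CNE1 passed the filter only through its wild-type signal, at 21.5 and 24.4 in the mutant, against 41.7 and 40.2 in wild type; without it 2 genes fell. The ER cyclophilin gene CPR5 gave 277.2 and 64.2 in the mutant, against 548.0 and 473.8 in wild type, mutant replicates that disagree widely. Of 3 other Hsp70 and exchange factor genes 0 were called by limma, with 1 higher at an unadjusted p below 0.05, and SIL1 and SNL1 gave 0.32 and -0.16. Among 5 other Hsp90 partners 1 rose, SGT1, by 0.45, and 1 fell, HCH1, an AHA1 homologue, by 0.35. SGT1 kept its call in 1 and HCH1 in 0 of the 4 fits without 1 array.

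Stress genes outside the chaperones were also mixed. The polyubiquitin gene UBI4, induced by heat, rose to 482.0 and 443.4 in the mutant, against 284.9 and 192.1 in wild type (0.93, limma adjusted p = 0.00243). It was 1 of 6 tested further targets of heat shock factor, of which 1 rose and 1 (HCH1) fell. Of 19 tested stress genes of Msn2 and Msn4, 7 rose and 1 fell, with a median of 0.22 that turned to -0.17 when scaled to the hybridization controls. The glutamate decarboxylase gene GAD1 had 163.0 and 191.8 in the mutant, against 75.7 and 73.5 in wild type. CTT1, TKL2 and SDP1, counted among the 19 and in the median, each had 1 strain below the filter. Without them 5 rose and 1 fell. Of the 7, SDP1 and 1 other passed the filter only through their mutant signal. SDP1, a phosphatase gene of the cell integrity pathway, had 41.2 and 44.3 in the mutant, against 14.5 and 11.3 in wild type, and is not among the 5. SOL4 and the glucokinase gene GLK1 rose by 0.78 and 0.57. Of 5 stress regulator genes 0 rose and 1 fell (0 higher and 2 lower at an unadjusted p below 0.05); SKN7, a regulator of the oxidative stress response, gave 80.2 and 83.2 in the mutant, against 114.5 and 106.4 in wild type, a fall kept in 1 of the 4 fits without 1 array.

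Over the 9 members that rose, SSA3, HSP82, HSP12 and BTN2 were called with each array left out in turn, and SSA3 and HSP82 also under scaling to the hybridization controls. SSA4, SSE2 and CPR6 turned slightly negative under that scaling, at -0.09, -0.03 and -0.04, and SSA1 and HSP78 gave 0.07 and 0.08. SSA4 kept its call without wild-type replicate 2 (adjusted p = 0.0459) and lost it without mutant replicate 1 (0.155), mutant replicate 2 (0.159) or wild-type replicate 1 (0.171), with no filter (0.0509) or with no intensity trend (0.0605).

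**Figure D5:**
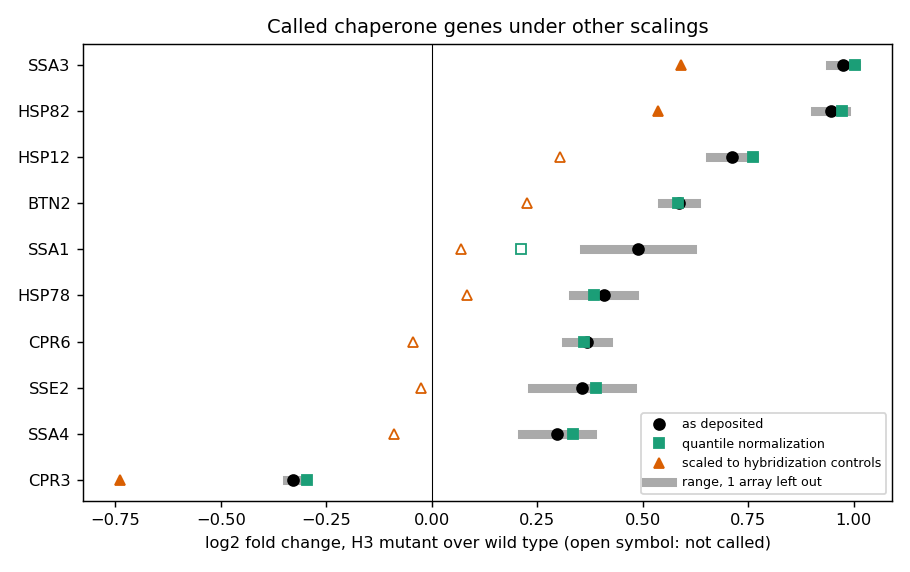
Log2 fold change (H3 mutant over wild type) of the 10 called chaperone genes with the arrays as deposited, after quantile normalization and after scaling to the hybridization controls; grey bars span the fits with 1 array left out, and open symbols mark values not called. SSA3, HSP82 and CPR3 stay called under every scaling shown, at 0.59, 0.54 and -0.74 with the hybridization controls. With those controls 55.6% of all tested genes were called lower, so the CPR3 call there says little about CPR3. CPR3 also lost its call whenever 1 array was left out.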

How the data were processed

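The authors deposited 1 intensity per probe set and array on a linear scale; the submitters' processing notes name MAS5, and no source used here gives its version or scaling target. The trimmed mean was 125.1 on each array, and the values were used as they stand. The platform table gives 1 gene for 6504 of 9335 probe sets, several for 328 and none for 2503. Symbols were brought up to date by gene identifier, which matched all 41 members. No coordinates are printed, since the array's build is not named. Log2(signal + 16) was fitted with limma 3.58.1 in R 4.3.3 (lmFit, then eBayes with an intensity trend) for the mutant minus wild type. P-values were adjusted by Benjamini-Hochberg over 4476 genes and called below 0.05. These were the single-gene probe sets from the 25th percentile of mean log2 signal upward (signal 25.1), the brightest for each gene. Paralog ratios had exact permutation tests (scipy 1.17.1). Alternatives changed the offset, filter, trend, probe set rule, scaling, replicate block and arrays used. Members, classes, lists and the rule for named genes (all members; per further list up to 4 called genes by adjusted p, or 2 uncalled) were chosen with earlier results of these data known, and neighbouring genes were added after values were seen. The number of arrays limits the precision. Figures were drawn with matplotlib 3.10.9.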

Additional observations from a re-analysis of the deposited data

How the results depend on the processing

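An offset of 1 or 64, no filter, no intensity trend and the mean over a gene's probe sets gave 9 members higher and 1 lower, though HSP30 took the place of SSA4 with no filter and HSP60 with no trend. Quantile normalization gave 8 and 2: SSA1 lost its call and STI1 was called lower. A filter at the median gave 8 and 2 of 32 tested members: HSP78 was no longer tested, and STI1 was called lower. Leaving out the stretch of disagreeing probe sets gave 9 and 3 of 31 tested members. HSP78 lies in that stretch and dropped out, HSP60 was added higher, and SIS1 and STI1 were added lower. Why the calls of genes still tested changed was not tested. The replicate number as a block gave 12 and 3, adding HSC82 (adjusted p = 0.0154), HSP60 and KAR2 higher and SIS1 and STI1 lower; the numbers are not stated to mark a shared culture or day, and the deviations of same-numbered arrays correlated at 0.130 across genes, so it is given only here. That block also called the brighter probe set shared by SSA1 and SSA2 (0.516, adjusted p = 0.0376). In the gene fits with that block and with scaling to the hybridization controls, a gene's own replicate spread did not enter its p-value. With 1 array left out, 4 to 7 members were called higher (4 without mutant replicate 1 or wild-type replicate 1, 5 without mutant replicate 2, 7 without wild-type replicate 2) and 0 to 2 lower, from fewer samples and with the lone array assumed to vary like the others.

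Scaling to the hybridization controls gave 2 higher and 20 lower, with medians of -0.363 for all members, -0.283 in the cytosol, -0.468 in the ER, -0.357 in mitochondria, and -0.045, -0.405 and -0.398 for the inducible, dual and constitutive classes. It turned the sign of SSA2 (-0.292), SSA4 (-0.0895), SSC1 (-0.336), SSE2 (-0.0252), SSZ1 (-0.390), KAR2 (-0.173), HSC82 (-0.136), HSP104 (-0.185), HSP60 (-0.109), HSP10 (-0.378), HSP26 (-0.242), CPR1 (-0.202), CPR6 (-0.045), SBA1 (-0.274) and APJ1 (-0.0246). It also turned the shared probe sets of HSP82 and HSC82 (-0.134), SSA1 and SSA2 (-0.215 for the dimmer) and SSB1 and SSB2 (-0.335). This scaling lowered the mutant values and raised the wild-type values. Quantile normalization turned CDC37 (0.0231) and the SSB1 and SSB2 probe set (-0.0444), gave medians of 0.0794 for the cytosol, -0.0174 for the dual and -0.0832 for the constitutive class, and moved the ratio shifts of SSA4 over SSA2 to 0.325, SSA1 over SSA2 to 0.203 and HSP82 over HSC82 to 0.796. The inducible median was 0.375 with an offset of 1, 0.244 with 64 and 0.342 with no filter, and the constitutive median was -0.0807 without the stretch of probe sets. With an offset of 64 SSA3 over SSA2 shifted by 0.649 and SSA4 over SSA2 by 0.115. Scaling the arrays to the hybridization controls before taking ratios, chosen after seeing the data, gave 0.203 for SSA4 over SSA2 and 0.318 for CPR6 over CPR7.

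Across the fits without 1 array the median of all members ran from 0.0105 to 0.0938, of the cytosol from 0.0442 to 0.147, of the ER from -0.249 to -0.0245, of mitochondria from -0.000812 to 0.103, of the inducible class from 0.319 to 0.379, of the dual class from 0.0113 to 0.0346 and of the constitutive class from -0.15 to 0.0013. Uncalled members whose sign turned in such fits were SSA2 (-0.00688 to 0.258), SSC1 (-0.0153 to 0.149), SSZ1 (-0.0397 to 0.0776), ZUO1 (-0.0654 to 0.0245), JEM1 (-0.177 to 0.00232), HSP10 (-0.0742 to 0.142), HSP26 (-0.00791 to 0.175), HSP42 (-0.627 to 0.388), YDJ1 (-0.143 to 0.110), CDC37 (-0.171 to 0.147), MDJ1 (-0.289 to 0.0384), HSF1 (-0.199 to 0.0380) and CPR7 (-0.347 to 0.129). The mean over probe sets was not run for the paralog ratios, since each of those genes has 1 probe set of its own.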
